A study of Homo sapiens with 12 samples.

Results

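The 7 genes described here encode enzymes that join coenzyme A to a carboxylic acid. *ACSL1*, *ACSL3*, *ACSL4*, *ACSL5* and *ACSL6* are the long-chain acyl-CoA synthetases and act on fatty acids, and *ACSS1* and *ACSS2* are acetyl-CoA synthetases and act on acetate. They were taken as gene families by name, with earlier results of these data known, and are 7 of the 23705 genes of the count table. 6 of the 7 passed the filter on low counts and are among the 13522 genes tested, and *ACSL6* did not pass.

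RNA was sequenced from A375, a human metastatic melanoma cell line, in 3 independent experiments. In each experiment, separate cultures received for 24 h the DMSO vehicle at a final dilution of 1 in 10000, 5 μM of rosiglitazone (RGZ), an agonist of the nuclear receptor PPARγ, 2 μM of its antagonist T0070907, or both compounds together. Each of the 4 conditions therefore had 3 libraries, 1 per experiment. The results concern 1 cell line, and in bulk RNA a smaller number of cells of a given kind and less RNA per cell cannot be told apart.

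A fatty acid must be activated to its acyl-CoA before it can be oxidized in mitochondria, stored in triglyceride or built into a membrane phospholipid, and the long-chain synthetases differ in where they sit and which acids they prefer. *ACSL1* is a classical PPAR target in adipose tissue and liver, *ACSL3* is found on the endoplasmic reticulum and on growing lipid droplets, and *ACSL4* prefers polyunsaturated acids such as arachidonic acid and is known for its role in ferroptosis. PPARγ binds DNA together with RXR at paired copies of a short sequence.

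The library totals lay between 8319455 and 11375227 counts, and the detection floor was set at 3 counts, which are between 0.258 and 0.371 CPM (counts per 1000000, with totals scaled by edgeR's TMM factors). Libraries of one experiment tended to deviate from the condition means in the same direction. Each comparison is therefore given from a model of the 4 conditions alone and, where the call changes, also from a model with the experiment as a further term, called the replicate block. A gene was called when edgeR's quasi-likelihood test gave an adjusted p under 0.05 over all tested genes. Of the 8 melanocyte lineage markers examined, 4 passed the filter, led by *SOX10*, while *TYR*, the tyrosinase of pigment synthesis, was at 0 in all 12 libraries. The summed level of these 8 markers was 281 to 498 CPM in vehicle and 229 to 422 CPM in RGZ. The fibroblast markers summed to between 16.1 and 58.9 CPM over the conditions, the leukocyte markers to between 42.3 and 104 CPM, the endothelial markers to between 2.91 and 10.2 CPM, the keratinocyte markers to between 85.9 and 119 CPM and the adipocyte markers to between 0.865 and 2.62 CPM. In each list the ranges of RGZ and vehicle overlapped, and *KRT1* and *ADIPOQ* were at 0 in every library. Without the block edgeR called 0 markers for RGZ, with 0 at an unadjusted p under 0.05. With it, 2 of 4 tested melanocyte markers, 2 of 4 fibroblast, 1 of 2 endothelial and 1 of 3 keratinocyte markers were called lower and 1 of 3 leukocyte markers higher, where 4.35% of all tested genes were called lower and 4.95% higher. The lower genes were *MITF* (log2 fold change -0.34, adjusted p = 0.00997), *S100B* (-1.02, adjusted p = 3.73e-05), *COL1A1* (-0.76, adjusted p = 6.72e-04), *PDGFRB* (-0.57, adjusted p = 0.00763), *KDR* (-0.93, adjusted p = 0.0118) and *KRT14* (-0.94, adjusted p = 1.82e-04), and the higher was *CD68* (0.42, adjusted p = 8.27e-04). With T0070907 against vehicle, where 0.91% of all genes were called with the block, *S100B* was called higher (0.59, adjusted p = 0.0119). In the combination against RGZ (11.4% of all genes), *MITF* (0.27, adjusted p = 0.0377), *S100B* (1.34, adjusted p = 1.61e-06) and *KRT14* (1.10, adjusted p = 3.20e-05) were called higher and *CD68* lower (-0.39, adjusted p = 0.00151). In the combination against T0070907 (8.76%), *COL1A1* (-0.55, adjusted p = 0.0125) and *PDGFRB* (-0.53, adjusted p = 0.0133) were called lower and *LYZ* higher (0.54, adjusted p = 0.0390). These markers are named after their values were seen, and their part in the results below was not tested.

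The members lie on different chromosomes apart from the acetyl-CoA synthetases, and the sequence before a RefSeq transcript start is shown for the 3 long-chain synthetases that had higher counts with RGZ and for *ACSL1*, which did not. All lines give the coding strand of the GRCh38.p14 assembly from RefSeq, 5′ to 3′, within the 250 bases before a RefSeq transcript start and limited to bases outside every exon of GENCODE 29. The stretches of *ACSL3* and *ACSL4* lie before the GENCODE gene, and those of *ACSL5* and *ACSL1* lie inside the GENCODE gene span, between exons. Capitals mark the GC box (GGGCGG) or the nuclear receptor site (AGGTCA), each searched on both strands.
*ACSL3*, chr2:222860786-222860933, plus strand: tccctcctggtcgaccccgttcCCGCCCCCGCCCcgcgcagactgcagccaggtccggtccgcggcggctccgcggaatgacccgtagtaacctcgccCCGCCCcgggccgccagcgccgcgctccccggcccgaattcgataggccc
*ACSL4*, chrX:109733404-109733507, minus strand: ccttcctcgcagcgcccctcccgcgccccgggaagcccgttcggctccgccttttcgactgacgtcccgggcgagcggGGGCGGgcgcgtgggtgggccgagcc
*ACSL5*, first RefSeq start, chr10:112375018-112375234, plus strand: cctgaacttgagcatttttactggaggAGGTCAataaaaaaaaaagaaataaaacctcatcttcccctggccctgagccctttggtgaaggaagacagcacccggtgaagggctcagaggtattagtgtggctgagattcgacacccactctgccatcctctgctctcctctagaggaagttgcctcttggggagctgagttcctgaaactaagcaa
*ACSL1*, first RefSeq start, chr4:184826120-184826218, minus strand: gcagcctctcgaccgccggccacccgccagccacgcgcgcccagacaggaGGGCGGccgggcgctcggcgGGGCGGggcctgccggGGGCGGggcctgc

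The windows shown of *ACSL3*, *ACSL4* and *ACSL1* had 75.2%, 77.2% and 83.6% G and C in their 250 bases, where the median of the 35116 RefSeq windows of the same length was 58%, and held 3, 3 and 6 GC boxes. *ACSL1* has 5 RefSeq starts, and its other windows had 46.8% to 61.2% G and C and held 1 GC box in all. The GC box was in 10 of the 20 windows of the 7 genes, some of which overlap, and in 42.6% of all windows. The *ACSL5* window shown had 50% G and C, no GC box and 1 nuclear receptor site, which began 223 bases before the start. That site was in 3 of the 20 windows and in 12.1% of all windows. The full PPAR-RXR element, taken as AGGTCA repeated in the same direction with any 1 base between the copies and searched on both strands, was in 0 of the 20 windows of the 7 genes and in 0.0171% of all windows. The sterol regulatory core TCACCCCAC (0.362% of all windows) was in 2 of the 20 windows and CCAAT (32% of all windows) in 3. These are matches of letters within short windows, and PPAR elements farther away were not searched.

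*ACSL3* (NCBI gene 2181, chr2:222860934-222944639 of GRCh38, plus strand) had the highest level of the 7 genes and rose with RGZ. Its level was 171, 171 and 190 CPM in the vehicle libraries of experiments 1, 2 and 3, and 309, 324 and 402 CPM in the RGZ libraries. With T0070907 alone it was 135, 138 and 153 CPM, and with both compounds 173, 193 and 245 CPM. The 3 RGZ libraries lay above all other libraries, the 3 T0070907 libraries lay below all vehicle libraries, and the range of the combination overlapped that of vehicle.

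With RGZ, *ACSL3* rose 1.95-fold (log2 fold change 0.96, SE 0.13, adjusted p = 0.00375), by 1.81, 1.89 and 2.11 times in the 3 experiments. It was the 1 member called among the 6 tested, where 1.24% of all tested genes were called. Leaving out 1 library at a time kept the call, with a log2 fold change between 0.84 and 1.03. Cells given both compounds had less *ACSL3* than cells given RGZ, with a log2 fold change of -0.76 (SE 0.13, adjusted p = 0.0136) and a level 1.69-fold lower, and in this comparison *ACSL3* and *ACSL4* were the 2 members called, against 1.24% of all genes. This call was lost without the RGZ library of experiment 3 (adjusted p = 0.0574) or the combination library of experiment 1 (0.0680) or 2 (0.0520), and in a model of the RGZ and combination libraries alone (0.0998). In the blocked model it had an adjusted p of 3.05e-07 and was kept in all 6 fits that left out a library. Both comparisons use the same RGZ libraries, so they are not independent of each other.

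The other comparisons of *ACSL3* were not called without the block. The combination exceeded T0070907 alone by 0.52 on the log2 scale (SE 0.13, adjusted p = 0.260), and by 0.51 with the block (SE 0.06, adjusted p = 1.34e-04), higher in 3 of 3 experiments. T0070907 alone differed from vehicle by -0.32 (SE 0.13, adjusted p = 1.00), and with the block it was called lower (SE 0.06, adjusted p = 0.0194). The ratio to vehicle was 0.790, 0.810 and 0.803 in the 3 experiments, and the blocked call remained in 1 of the 6 fits that left out a library, with adjusted p-values from 0.0375 to 0.261. The combination differed from vehicle by 0.20 (SE 0.13, adjusted p = 0.574), with a 95% interval from -0.08 to 0.48. Under the block the adjusted p came to 0.119, and to 0.0458 when the combination library of experiment 2 was left out. The log2 fold change of *ACSL3* with RGZ differed by -0.44 between cells given T0070907 and cells not given it. That difference was called with the block (SE 0.09, adjusted p = 0.0452), where 0.281% of all genes were called, and not without it (SE 0.18, adjusted p = 1.00). The blocked call remained in 3 of the 12 fits that left out a library, each of them without a combination library, with adjusted p-values from 0.00694 to 0.247 over the 12.

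*ACSL4* (NCBI gene 2182, chrX:109624244-109733403 of GRCh38, minus strand) changed less than *ACSL3*. Its level was 71.8, 73.9 and 64.5 CPM in vehicle and 85.2, 99.0 and 85.5 CPM with RGZ in experiments 1, 2 and 3. It was 62.7, 63.3 and 57.2 CPM with T0070907 and 55.3, 73.9 and 62.9 CPM with both compounds. The RGZ libraries were above those of the other 3 conditions, and the T0070907 libraries were below those of vehicle. The increase with RGZ was 1.28-fold (log2 fold change 0.36, SE 0.10) and missed the threshold without the block (adjusted p = 0.168). With the block it was called (SE 0.07, adjusted p = 0.00352), and this call remained in all 6 fits that left out a library.

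The combination was lower than RGZ alone in *ACSL4* by 0.49 on the log2 scale (SE 0.10, adjusted p = 0.0476). That call was lost, with adjusted p-values from 0.0944 to 0.189, when any library of the pair of conditions was left out except the combination library of experiment 2 (adjusted p = 0.0294). It was also lost in a model of these 6 libraries alone (adjusted p = 0.169). The blocked model gave 2.23e-04. T0070907 alone differed from vehicle by -0.20 (SE 0.11, adjusted p = 1.00, and 0.340 with the block), and it was lower in 3 of 3 experiments. Exons of *ACSL4* and of *KCNE5*, on the same strand, share 78 bases, and reads in that stretch could have been counted for either gene.

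*ACSL5* (NCBI gene 51703, chr10:112374018-112428380 of GRCh38, plus strand), an enzyme of mitochondria and the endoplasmic reticulum, was scarce and differed strongly between experiments. It had 21, 68 and 18 counts in the vehicle libraries, which are 2.38, 8.09 and 2.12 CPM, and 63, 192 and 43 counts with RGZ, which are 6.55, 21.9 and 4.36 CPM. With T0070907 the counts were 24, 57 and 12, and with both compounds 25, 67 and 14. In each condition the library of experiment 2 was the highest, so the ranges of all conditions overlapped although the RGZ library exceeded its own vehicle by 2.75, 2.71 and 2.06 times. Without the block the log2 fold change for RGZ was 1.38 with an SE of 0.75 (adjusted p = 0.570), and it ranged from 0.38 without the RGZ library of experiment 2 to 2.26 without the vehicle library of that experiment. With the block it was 1.36 with an SE of 0.18 (adjusted p = 4.26e-05), called in all 6 fits that left out a library. The combination was lower than RGZ by 1.47 with the block (SE 0.18, adjusted p = 2.09e-05) and by 1.48 without it (SE 0.75, adjusted p = 0.429). *ACSL5* exons overlap those of *ZDHHC6* on the opposite strand over 144 bases, and whether reads were counted by strand is not given in the sources used here.

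**Figure D1:**
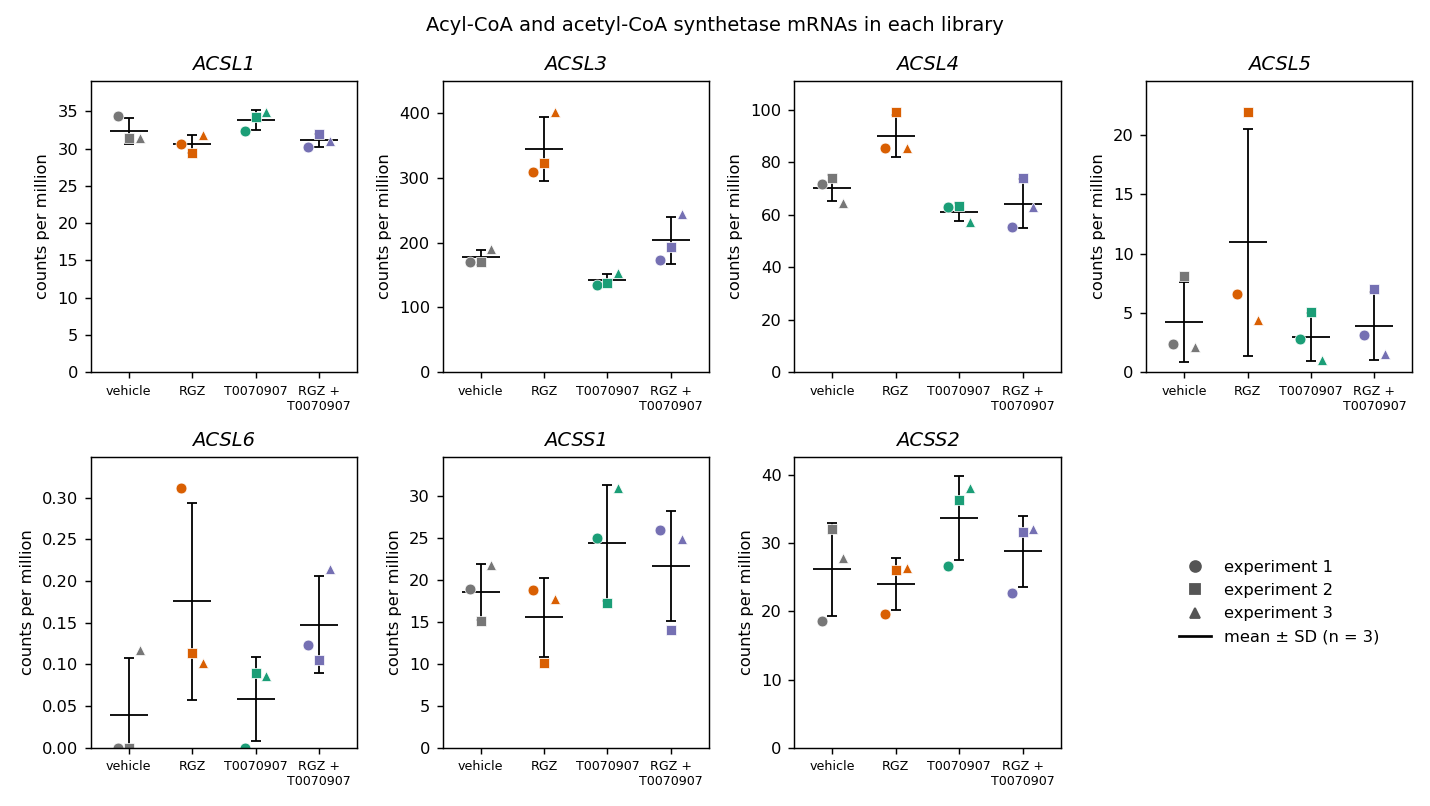
Level of each gene in CPM (vertical axes, from 0) in the 4 conditions, with 1 point per library, the symbol giving the experiment and the bar the mean ± SD of 3 libraries. *ACSL3* lies between 309 and 402 with RGZ and at or below 245 elsewhere, and *ACSL5* is highest in experiment 2 in every condition.

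*ACSL1* (NCBI gene 2180, chr4:184755595-184826818 of GRCh38, minus strand) stayed within a narrow range. Its level was 34.4, 31.4 and 31.4 CPM in vehicle, 30.7, 29.5 and 31.8 CPM with RGZ, 32.3, 34.2 and 34.9 CPM with T0070907 and 30.3, 32.0 and 31.1 CPM with both. The RGZ and vehicle libraries overlapped. The log2 fold change for RGZ was -0.08 (SE 0.07, adjusted p = 0.749), and its 95% interval, from -0.24 to 0.08, held no increase above 0.08. It was not called in any comparison, with or without the block. The 3 libraries of the combination lay below those of T0070907 alone (log2 fold change -0.12, SE 0.07, adjusted p = 0.460), as 1 of the 2 members whose libraries did not overlap there, against 18.7% of all tested genes.

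*ACSL6* (NCBI gene 23305, chr5:131949973-132012243 of GRCh38, minus strand), a form best known from the nervous system, had between 0 and 3 counts in each of the 12 libraries. The highest value was 0.312 CPM, in the RGZ library of experiment 1. All values are at or under the floor of 3 counts, so no difference between conditions was detectable at this depth. Of its exon sequence, 2009 bases are also annotated to another gene on the same strand, which was matched to no row of the count table.

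The acetyl-CoA synthetases were not called for RGZ in either model, and each was called in 1 comparison with the block. *ACSS2* (NCBI gene 55902, chr20:34872146-34927962 of GRCh38, plus strand) acts in the cytosol and nucleus. Its level was 18.6, 32.0 and 27.8 CPM in vehicle, 19.5, 26.0 and 26.4 CPM with RGZ, 26.7, 36.3 and 38.1 CPM with T0070907 and 22.7, 31.6 and 32.0 CPM with both. Experiment 1 had the lowest value in every condition. The ranges overlapped in each of the 5 comparisons of conditions. T0070907 exceeded vehicle by 0.37 on the log2 scale, without a call in the model of the conditions (SE 0.21, adjusted p = 1.00) and with one under the block (SE 0.08, adjusted p = 0.0441). The blocked call was kept only without the vehicle library of experiment 2 (adjusted p = 0.0225) and was lost without any other library of the pair, where the adjusted p was between 0.109 and 0.314. For RGZ the log2 fold change was -0.12 (SE 0.21, adjusted p = 0.888).

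*ACSS1* (NCBI gene 84532, chr20:25006230-25058980 of GRCh38, minus strand), the mitochondrial form, had 18.96, 15.1 and 21.8 CPM in vehicle, 18.8, 10.2 and 17.8 CPM with RGZ, 25.1, 17.3 and 31.0 CPM with T0070907 and 25.9, 14.1 and 25.0 CPM with both. Here experiment 2 gave the lowest value in each condition, the opposite of *ACSL5*. The combination exceeded RGZ alone 1.38, 1.39 and 1.41 times in the 3 experiments (log2 fold change 0.47, SE 0.29, adjusted p = 0.525). With the block this was called (SE 0.11, adjusted p = 0.0106), and without the RGZ library of experiment 3 the adjusted p was 0.0835. T0070907 exceeded vehicle by 0.39 (SE 0.29, adjusted p = 1.00, and 0.118 with the block), higher in 3 of 3 experiments. RGZ differed from vehicle by -0.25 (SE 0.29, adjusted p = 0.817, and 0.187 with the block).

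Counted over the comparisons, the block raised the number of members called for RGZ from 1 to 3 of 6, where it raised the share of all genes called to 9.3%. For T0070907 it raised the number from 0 to 2, against 0.0074% and 0.91% of all genes. 1 member had an unadjusted p under 0.05 there without the block. DESeq2 and limma-voom, which were run only without the block, called 0. For the combination against RGZ the number went from 2 to 4, against 11.4% of all genes, and for the combination against T0070907 from 0 to 1, against 0.037% and 8.76% of all genes. In that last comparison, without the block, 1 member had an unadjusted p under 0.05 and DESeq2 called 1. For the combination against vehicle edgeR called 0 members and 0 genes, which is 0% of all genes, with either model, and DESeq2 and limma-voom also called 0. 1438 genes, and 0 members, had an unadjusted p under 0.05 in the model of the conditions. For the combination against vehicle 0 of the 6 members had ranges that did not overlap, against 12.2% of all genes. Between RGZ and vehicle, 2 of the 6 members had ranges that did not overlap, *ACSL3* and *ACSL4*, against 16.8% of all genes. For T0070907 against vehicle it was the same 2 genes, against 7.67%, and for the combination against RGZ again these 2, against 17.7%. The comparisons of RGZ and of T0070907 with vehicle share the vehicle libraries.

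**Figure D2:**
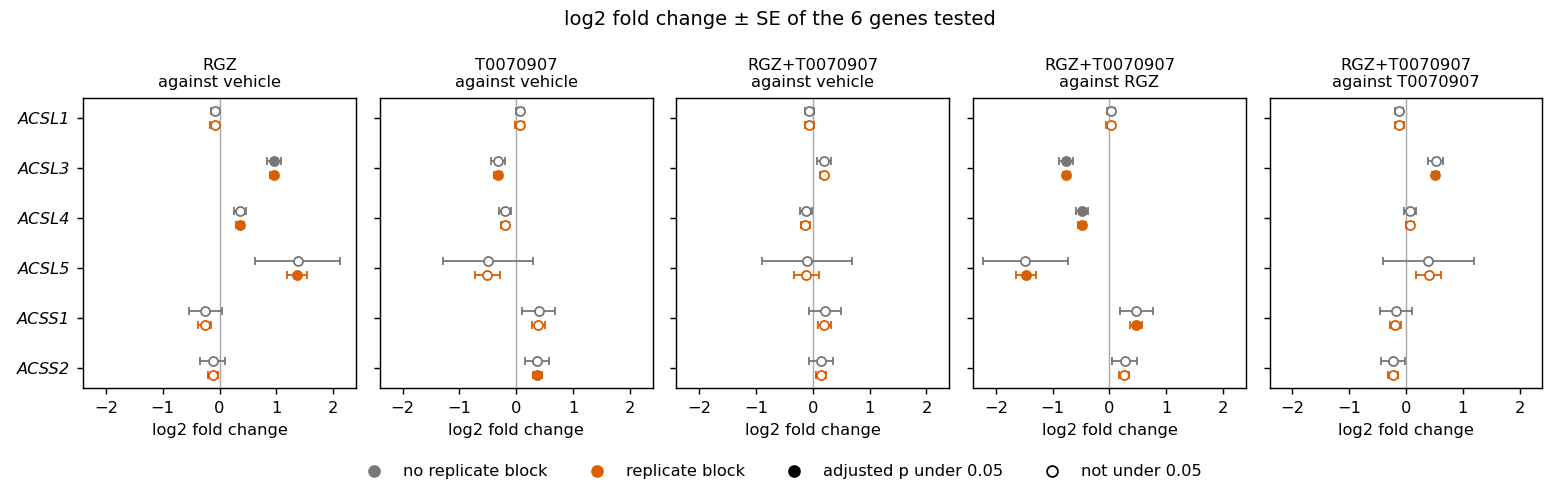
log2 fold change ± SE (horizontal axes) of the 6 tested genes in 5 comparisons, from the model of the conditions (grey) and with the replicate block (orange), filled where the adjusted p was under 0.05. *ACSL3*, at 0.96 for RGZ, is filled in both models, and the block shortens the bar of *ACSL5* from 0.75 to 0.18.

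Per kilobase of the longest annotated transcript, the order of levels in vehicle was *ACSL3* (31.2 CPM per kb), *ACSL4* (13.1), *ACSS2* (8.53), *ACSL1* (7.90), *ACSS1* (3.90), *ACSL5* (1.24) and *ACSL6*. The order of the means was the same in all 4 conditions and with the median transcript length or the longest coding transcript. The levels themselves depended on the length, since the median transcript of *ACSL3* has 639 bases and the longest 5679, and per kilobase of the median transcript *ACSL3* had 277 CPM per kb in vehicle, *ACSL4* 106 and *ACSS2* 42.6. Per kilobase of the longest transcript, *ACSS2* and *ACSL1* are neighbours whose libraries overlapped in vehicle, with 6.08 to 10.4 against 7.66 to 8.39 CPM per kb, while the other neighbouring pairs above *ACSL6* did not overlap there. This pair also overlapped with RGZ and with both compounds. *ACSS1* and *ACSL5* had nearly equal means with RGZ, 3.27 (2.13 to 3.95) and 3.24 (1.29 to 6.49) CPM per kb, and *ACSL5* was the higher in experiment 2. *ACSL4* and *ACSS2* overlapped with T0070907, with 10.7 to 11.9 against 8.71 to 12.4 CPM per kb, and with both compounds. By the mean vehicle level per kilobase of the longest transcript, *ACSL3* was at or above 81.9% of the tested genes with a known length, *ACSL4* 63.4%, *ACSS2* 52.2%, *ACSL1* 50.3%, *ACSS1* 34.3% and *ACSL5* 16.4%.

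**Figure D3:**
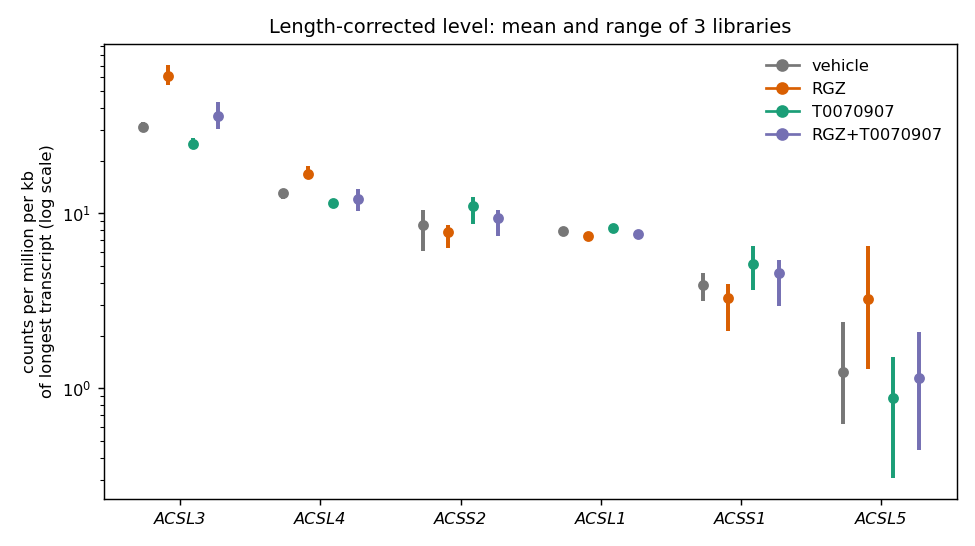
Level per kilobase of the longest transcript (vertical axis, log scale) of the 6 tested genes in order of their vehicle level, with the mean as a point and the range of 3 libraries as a line. *ACSL3* leads in every condition, and the vehicle ranges of *ACSS2* and *ACSL1* overlap.

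Per kilobase of the longest transcript, the 5 long-chain synthetase genes together had 53.5 ± 0.751 CPM per kb in vehicle, 88.3 ± 7.99 with RGZ, 45.6 ± 1.19 with T0070907 and 56.6 ± 6.92 with both (mean ± SD, n = 3). *ACSL3* made up 58.3% ± 3.37 of the sum in vehicle, 68.6% ± 5.00 with RGZ, 54.8% ± 2.69 with T0070907 and 63.1% ± 4.88 with both (SD, n = 3). The share of *ACSL1* was 14.8% ± 1.00 in vehicle and 8.49% ± 0.744 with RGZ (SD, n = 3), while its own level per kb was 7.90 and 7.47. The share of *ACSL4* was 24.6% ± 1.83 and 19.2% ± 2.16, while its level per kb was 13.1 and 16.9 (SD, n = 3). Both shares are fractions of a sum that is mostly *ACSL3*, so they are no measurement apart from its level. For *ACSL1* the RGZ libraries, from 8.04% to 9.35%, lay below those of vehicle, from 14.2% to 15.9%. Per kilobase of the median transcript the sum was 398 ± 9.46 CPM per kb in vehicle and 692 ± 73.8 with RGZ, *ACSL3* made up 69.8% ± 2.74 and 77.9% ± 3.25 of it, and *ACSL1* 3.18% ± 0.227 and 1.73% ± 0.153 (SD, n = 3). The size of the sum and of the *ACSL1* share thus depends on the length used, while under both lengths the RGZ libraries had a higher sum and a lower *ACSL1* share than vehicle. These shares are descriptions and were not tested.

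**Figure D4:**
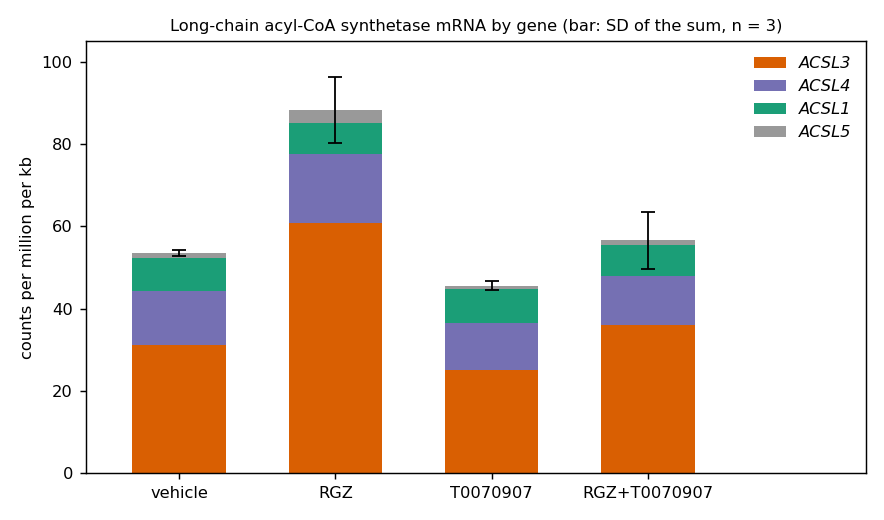
Summed level of the long-chain acyl-CoA synthetase genes per kilobase (vertical axis, CPM per kb) in each condition, split by gene, with the SD of the sum over 3 libraries as the bar; *ACSL6* is too low to show. The sum is 88.3 with RGZ and 53.5 in vehicle, and the *ACSL3* segment accounts for 60.8 and 31.2 of it.

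With the mean of each experiment removed, log2 levels over the 12 libraries, which share 4 conditions, had a Pearson r of 0.90 between *ACSL3* and *ACSL4*, 0.92 between *ACSL3* and *ACSL5* and 0.94 between *ACSS1* and *ACSS2*, and *ACSL4* and *ACSS1* had -0.94. Without that step, the r of *ACSL3* with *ACSL5* was 0.42 and that of *ACSS1* with *ACSS2* was 0.10. Among the other 13521 tested genes, those most like *ACSL3* by this measure were *GDE1* (0.996), *AREG* (0.995), which encodes the growth factor amphiregulin, and *PLIN2* (0.995), which encodes a lipid droplet coat protein. For *ACSL4* they were *NCOA7* (0.990), *PPP2R3A* (0.986) and *AGPS* (0.983), an enzyme of ether lipid synthesis. For *ACSL5* they were *SLC17A9* (0.983), *TRAK1* (0.981) and *SERINC2* (0.974), for *ACSS2* *CD200* (0.947), *VWA1* (0.939) and *LAMP1* (0.939), and for *ACSS1* *C20orf96* (0.991), *PIMREG* (0.981) and *TMEM8B* (0.980). Without removal of the experiment means these r were 0.903 to 0.981 for the genes like *ACSL3*, 0.724 to 0.973 for *ACSL4*, 0.565 to 0.855 for *ACSL5*, -0.076 to 0.663 for *ACSS2* and 0.175 to 0.425 for *ACSS1*. These are descriptions of 12 libraries and carry no test.

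The genes around the synthetases were examined as lists. Of 15 PPAR target genes 14 were tested, and 10 were called higher and 0 lower with RGZ, against 0.947% and 0.288% of all genes. The median log2 fold change of the 14 was 1.73, also with the 3 genes at the floor in vehicle set to their bound, against -0.01 over all tested genes. *FABP4*, a fatty acid binding protein, had 0.114, 0.119 and 0.118 CPM in vehicle and 197, 401 and 167 CPM with RGZ, which is at least 728-fold higher, counted against a floor of 3 counts per library. *ANGPTL4*, an inhibitor of lipoprotein lipase, had 3.41, 5.24 and 8.35 CPM in vehicle and 384, 451 and 449 CPM with RGZ. *CD36*, a fatty acid transporter, rose from 0 to 0.227 CPM in vehicle to 2.91 to 4.36 CPM, at least 10.8-fold. *PLIN4*, a lipid droplet protein, had a log2 fold change of 4.13 (SE 0.39, adjusted p = 4.64e-04). For comparison, *ACSL3* rose 1.95-fold.

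Of 4 tested genes of acyl-CoA entry into mitochondria, 2 were called higher and 0 lower with RGZ, against 0.947% and 0.288% of all genes, and they moved by amounts near that of *ACSL3*. *CPT1A* is also on the list of PPAR target genes and counted among those called above, so the lists are not separate. *SLC25A20*, the carnitine-acylcarnitine carrier, had 27.6, 30.2 and 31.5 CPM in vehicle and 55.4, 57.2 and 58.3 CPM with RGZ (log2 fold change 0.94, SE 0.09, adjusted p = 4.64e-04). *CPT1A*, the carnitine palmitoyltransferase of the outer membrane, had 60.5, 57.0 and 69.5 CPM in vehicle and 102.9, 104.1 and 113.3 CPM with RGZ (0.78, SE 0.12, adjusted p = 0.00743). Both were lower in the combination than in RGZ alone, by 0.80 (adjusted p = 0.00174) and 0.89 (adjusted p = 0.00445) on the log2 scale. With T0070907 alone, edgeR called 0 of the 4 without the block, 2 having an unadjusted p under 0.05, where *CPT1A* had a log2 fold change of -0.78 (adjusted p = 0.116) and *SLC25A20* one of -0.37 (adjusted p = 0.808). With the block both were called lower than vehicle (adjusted p = 1.92e-04 and 0.0493), against 0.91% of all genes called in either direction, and the log2 fold change of *ACSL3* was -0.32.

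Of 20 genes that use acyl-CoA for glycerolipids and sterol esters 19 were tested, and 2 were called higher and 0 lower with RGZ, against 0.947% and 0.288% of all genes. *LPCAT3*, which puts polyunsaturated acyl groups into phospholipids, had 68.2, 69.7 and 75.7 CPM in vehicle and 132, 145 and 139 CPM with RGZ (log2 fold change 0.96, SE 0.08, adjusted p = 2.69e-04). It is also one of the ferroptosis genes. *AGPAT2*, an acyltransferase of phosphatidic acid synthesis, rose by 0.62 (SE 0.12, adjusted p = 0.0258). With the block 3 were called higher and 2 lower, against 4.95% and 4.35% of all genes. *GPAT3* was then higher by 0.47 (SE 0.06, adjusted p = 2.91e-05) and *LPCAT2* lower, with a log2 fold change of -0.66 (SE 0.07, adjusted p = 5.51e-06). The list's median was -0.01 without the block.

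Of 13 genes of acetyl-CoA supply and use, all tested, 0 were called higher and 1 lower with RGZ, against 0.947% and 0.288% of all genes. The latter was *KAT2B*, a lysine acetyltransferase that uses acetyl-CoA, which had 22.0, 23.0 and 23.5 CPM in vehicle and 16.4, 15.2 and 14.9 CPM with RGZ (log2 fold change -0.56, SE 0.11, adjusted p = 0.0344). With the block the citrate carrier *SLC25A1* was also called, higher (0.37, SE 0.08, adjusted p = 0.00501), against 4.95% of all genes. The median of the list was 0.03. Of 20 further acyl-CoA synthetases 9 were tested, with a median of -0.09, and edgeR called 0 without the block, 2 having an unadjusted p under 0.05. With the block it called *SLC27A1*, a fatty acid transport protein with synthetase activity, lower with RGZ (log2 fold change -0.57, SE 0.11, adjusted p = 0.00299), against 4.35% of all genes. Its level was 19.3, 20.2 and 23.5 CPM in vehicle and 13.2, 12.3 and 17.1 CPM with RGZ.

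Of 13 genes listed as acyl-CoA thioesterases, 7 were tested and edgeR called 0 for RGZ in either model, with 0 at an unadjusted p under 0.05 without the block and 1 with it. Their median was 0.00. Of the 7 acyl-CoA binding proteins, all tested, 0 were called without the block, 1 having an unadjusted p under 0.05, and the median was -0.04. With the block *DBI*, the small acyl-CoA binding protein, was called higher with RGZ (0.44, SE 0.08, adjusted p = 9.34e-04), against 4.95% of all genes, with 101, 131 and 122 CPM in vehicle and 142, 167 and 170.4 CPM in RGZ.

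Of 15 SREBP target genes 14 were tested, 0 were called with RGZ without the block, 2 having an unadjusted p under 0.05, and with it 3 were called higher, against 4.95% of all genes. These were *ELOVL6* (0.39, adjusted p = 0.00258), *SCD* (0.39, adjusted p = 1.36e-04) and *FDFT1* (0.35, adjusted p = 9.27e-04), which make or desaturate fatty acids or act in sterol synthesis. The list's median was 0.11. *ACSS2* is a known SREBP target, and its log2 fold change was -0.12. Of 15 ferroptosis genes 13 were tested, and 2 were called higher with RGZ, against 0.947% of all genes, *LPCAT3* and *POR*, an oxidoreductase that feeds electrons to cytochrome P450 enzymes (0.46, SE 0.09, adjusted p = 0.0306). With the block 4 were called higher and 1 lower, against 4.95% and 4.35% of all genes. *HMOX1*, heme oxygenase 1, was higher (0.54, SE 0.10, adjusted p = 0.00185) and *SLC7A11*, the cystine transporter, lower (-0.37, SE 0.09, adjusted p = 0.0117). The list's median was 0.10.

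**Figure D5:**
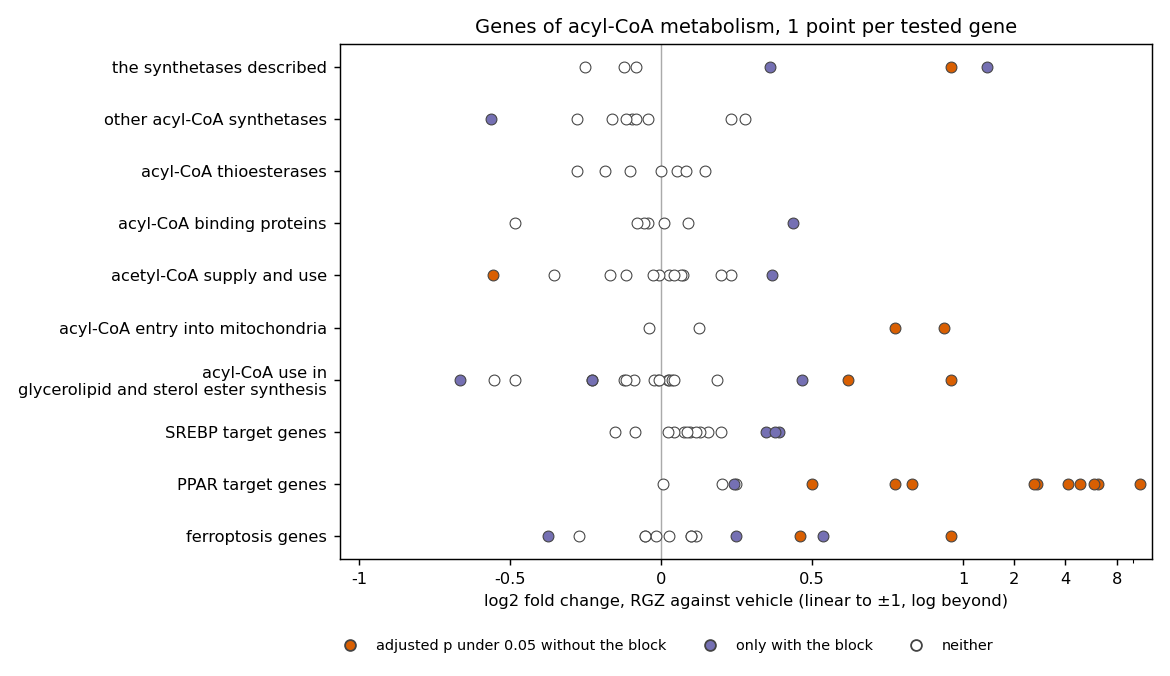
log2 fold change of RGZ against vehicle without the block (horizontal axis, linear between -1 and 1 and logarithmic beyond) for each tested gene of the lists, 1 row per list, coloured by whether the adjusted p was under 0.05 without the block, only with it, or in neither model. The PPAR targets lie to the right, 10 of 14 called, and the 7 thioesterases carry no call.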

How the data were processed

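RNA of A375 cells in 4 conditions and 3 experiments was sequenced after TruSeq library preparation on a HiSeq 2000. The authors deposited raw counts per gene without normalization, and the submitters' processing notes name the build hg19. The aligner, the counting tool, the annotation and the use of strand are not given in the sources used here. The table held 0 columns of other samples. Conditions and experiments were taken from the labels. NCBI gene numbers were matched to symbols for 23538 of 23705 rows, and positions are those of GENCODE 29 on GRCh38.

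Tests were run with edgeR 4.0.16 under R 4.3.3 (TMM, filterByExpr, glmQLFit and glmQLFTest on all 12 libraries, Benjamini-Hochberg adjustment over all tested genes). The SE is the log2 fold change divided by the square root of F and is approximate, and 95% intervals use it. Library totals ranged from 8319455 to 11375227 counts, and floors cover counting error only. Libraries of the same experiment correlated in their deviations from the condition means by 0.554 on average (0.0793 to 0.758), those of different experiments by -0.27, and the pairing itself comes from the labels. Without the block, p-values are set against the spread between libraries of a condition, which includes that between experiments. With the block, they are set against the spread left after the experiment term. Both concern 1 cell line.

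The members and the lists were chosen with earlier results of these data known. Named were all members, up to 4 called genes of each list with the largest change under RGZ and an average level of 1 CPM or more, and the 3 genes most like each member that was called in any comparison. Alternatives were the replicate block and, each of them without the block, DESeq2 1.42.0, limma-voom (limma 3.58.1), DESeq2 size factors within edgeR, no filter on low counts, only the groups compared and leaving out each library. The block combined with leaving out a library, the length of the longest coding transcript and the sum and shares by median transcript length were added after the data were seen. The tests were tried on simulated counts with known changes. Those counts had an experiment effect and the spread of the blocked fit, a setting like the blocked model, and no result given here rests on them.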

Additional observations from a re-analysis of the deposited data

Results flagged for a closer look

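The effect of RGZ on *ACSL3* differed with and without T0070907 by -0.44 on the log2 scale in the model with the replicate block (SE 0.09, adjusted p = 0.0452), which marked it as a difference between groups under the same contrast. RGZ raised *ACSL3* by 0.95 in the absence of T0070907 and by 0.51 in its presence. Without the block the difference was also -0.44, with an SE of 0.18 and an adjusted p of 1.00. With the block and 1 library left out, the difference ranged from -0.51 to -0.38 and its adjusted p from 0.00694 to 0.247, under 0.05 in 3 of 12 fits. Groups of 3 libraries were too small for a check on single outlying libraries.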

How the results depend on the processing

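With the replicate block, 3 members were called for RGZ against vehicle, 2 for T0070907 against vehicle, 4 for the combination against RGZ, 1 for the combination against T0070907 and 1 for the interaction, compared with 1, 0, 2, 0 and 0 without it, and it changed no other call of a member. Without the block, DESeq2 called 1 for the combination against T0070907, and a model of only the groups compared called 0 for the combination against RGZ. Leaving out 1 library gave 1 member for RGZ in each fit and 0 to 1 for the combination against RGZ. Leaving out 1 library with the block gave 3 for RGZ, 0 to 1 for T0070907, 0 to 1 for the combination against vehicle, 3 to 4 for the combination against RGZ, 1 for the combination against T0070907 and 0 to 1 for the interaction. Over all genes the block called 1258, 123, 0, 1545, 1185 and 38 in the order RGZ, T0070907 and the combination against vehicle, the combination against RGZ and against T0070907, and the interaction, compared with 167, 1, 0, 167, 5 and 0 without it. DESeq2, run without the block, called 302, 21, 0, 318, 83 and 1. Without the filter 3 genes were called for T0070907 and 10 for the combination against T0070907, limma-voom called 0 for T0070907, and with only the groups compared 69 were called for RGZ, 41 for the combination against RGZ and 0 for the combination against T0070907. Leaving out 1 library gave 45 to 88 genes for RGZ and 53 to 130 for the combination against RGZ. Of 714 alternative values of the members' log2 fold changes, 660 kept their call or lack of one, 44 gained and 10 lost a call. Among called values 0 changed sign, while a change of sign in a value called in neither fit was counted as kept. No member's mean CPM moved beyond its SD with DESeq2 size factors, and no rank by CPM per kb changed with another transcript length, while the levels per kb and the summed level and shares of the long-chain synthetases did with the median transcript. A condition left with 1 library fewer was assumed to vary like the others. At these totals *ACSL6* was not measurable, and *ACSL5* rests on 12 to 192 counts per library.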
